A study of Mus musculus with 8 samples.

Results

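The Gimap genes encode the GTPases of immunity-associated proteins, a family of guanine nucleotide binding proteins that is abundant in lymphocytes. The 7 members described here are Gimap1, Gimap3, Gimap4, Gimap5, Gimap7, Gimap8 and Gimap9. They were chosen by symbol from a deposited table of 1329 genes. Poly-A RNA of ascending aortas was sequenced from Fbn1 mgR/mgR mice, which model Marfan syndrome and in which too little fibrillin-1, a protein of the elastic matrix, is made. One group of 4 libraries came from mice given DT-061, a small-molecule activator of protein phosphatase 2A. From the age of 5 weeks, these mice received 5 mg/kg by mouth 2 times daily, and treatment lasted 4 weeks. The other group of 4 libraries came from mice of the same genotype that received the vehicle on the same schedule. Mice with normal fibrillin-1 are not analysed here, so every value below comes from a diseased aorta.

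Gimap proteins carry a GTP binding domain of the AIG1 type, and several of them sit on intracellular membranes. The family is best known for keeping mature lymphocytes alive, and loss of Gimap5 or Gimap1 in mice leaves few circulating T cells. Some members have also been described in endothelium, so Gimap transcripts in a vessel wall need not come from lymphocytes alone. In bulk tissue, fewer cells of a type and less RNA per cell cannot be told apart.

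The promoters of 3 members are shown, because these genes had the largest log2 change (Gimap3), the highest mean level with DT-061 (Gimap4) and the largest ratio between the groups (Gimap7). Each window runs from 250 bases before to 50 bases after a RefSeq transcript start, on build GRCm38.p6. The regions are chr6:48770802-48771101 on the minus strand for Gimap3, chr6:48684328-48684627 on the plus strand for Gimap4 and chr6:48718371-48718670 on the plus strand for Gimap7. Capitals mark the ETS motif AGGAAG and the RUNX motif TGTGGT, or their reverse complements CTTCCT and ACCACA.
Gimap3: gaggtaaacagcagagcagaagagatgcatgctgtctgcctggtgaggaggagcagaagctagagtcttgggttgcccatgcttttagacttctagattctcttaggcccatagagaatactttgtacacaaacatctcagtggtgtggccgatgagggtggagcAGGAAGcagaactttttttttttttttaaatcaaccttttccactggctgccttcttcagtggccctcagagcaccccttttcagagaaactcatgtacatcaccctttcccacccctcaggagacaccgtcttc
Gimap4: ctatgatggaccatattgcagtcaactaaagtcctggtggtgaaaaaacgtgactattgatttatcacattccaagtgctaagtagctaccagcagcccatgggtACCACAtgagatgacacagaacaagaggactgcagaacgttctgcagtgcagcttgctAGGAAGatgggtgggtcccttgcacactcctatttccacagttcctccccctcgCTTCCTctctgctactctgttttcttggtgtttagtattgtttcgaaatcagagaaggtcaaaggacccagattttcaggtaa
Gimap7: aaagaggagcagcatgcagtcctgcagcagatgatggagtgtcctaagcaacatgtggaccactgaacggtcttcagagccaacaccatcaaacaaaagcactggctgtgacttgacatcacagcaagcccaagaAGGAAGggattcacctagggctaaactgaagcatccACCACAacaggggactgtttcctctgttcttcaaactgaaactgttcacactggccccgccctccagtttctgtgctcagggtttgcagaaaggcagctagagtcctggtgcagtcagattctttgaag
Positions count from the start, which is position 1. ETS proteins are a family of transcription factors with members prominent in lymphocytes and endothelium, and RUNX proteins act in T cell development. All 7 members matched the RefSeq table, with 8 windows, because Gimap8 has 2 annotated starts. AGGAAG, searched on both strands, was found in 7 of the 8 windows and for 7 of 7 members. It was found in 35.4% of all 32851 windows of that length in the table. In the printed windows it began at position -85 for Gimap3, at -87 and -33 for Gimap4 and at -115 for Gimap7. TGTGGT was found for Gimap1, Gimap4 and Gimap7, and in 16.8% of all windows.

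Other short motifs were searched on both strands of the same windows. The KLF motif GGGTGG was found for 5 members (31.5% of all windows), and the TCF motif CTTTGA for Gimap4 and Gimap7 (16.0%). The GAS motif TTCNNNGAA, the letters bound by STAT proteins, was found for Gimap3, Gimap7 and Gimap8 (8.30%). In Gimap7 it overlapped the TCF match and in Gimap8 the ETS match. The ISRE letters GAAANNGAA, known from interferon-inducible genes, and the TATA letters TATAAA were in 0 of the 8 windows, against 8.56% and 13.6% of all windows. These matches describe letters in a window and do not show that a factor binds there.

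All 7 Gimap genes were lower with DT-061, and the group means of FPKM (fragments scaled to transcript length and library size) differed by 3.24-fold for Gimap1 to 17.3-fold for Gimap7. By limma on log2(FPKM + 1), with p-values adjusted over the whole table and a threshold of 0.05, all 7 fell. With quantile normalization none of them passed limma's threshold, 1 had an unadjusted p under 0.05, and Gimap5 turned to a log2 change of 0.11. In the table, 65.0% of the genes passed as lower and the median log2 change was -0.58. The members' median was -1.12. The authors had selected the table for genes significant in this same comparison, so neither the count nor any p-value here is independent evidence of a change. In 3 of the 7 members, Gimap7, Gimap8 and Gimap9, all 4 DT-061 values lay below all 4 vehicle values, which was so for 48.2% of the table. No label states that the libraries came from separate mice, so the p-values measure the spread between these samples, part of which could be technical.

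**Figure D1:**
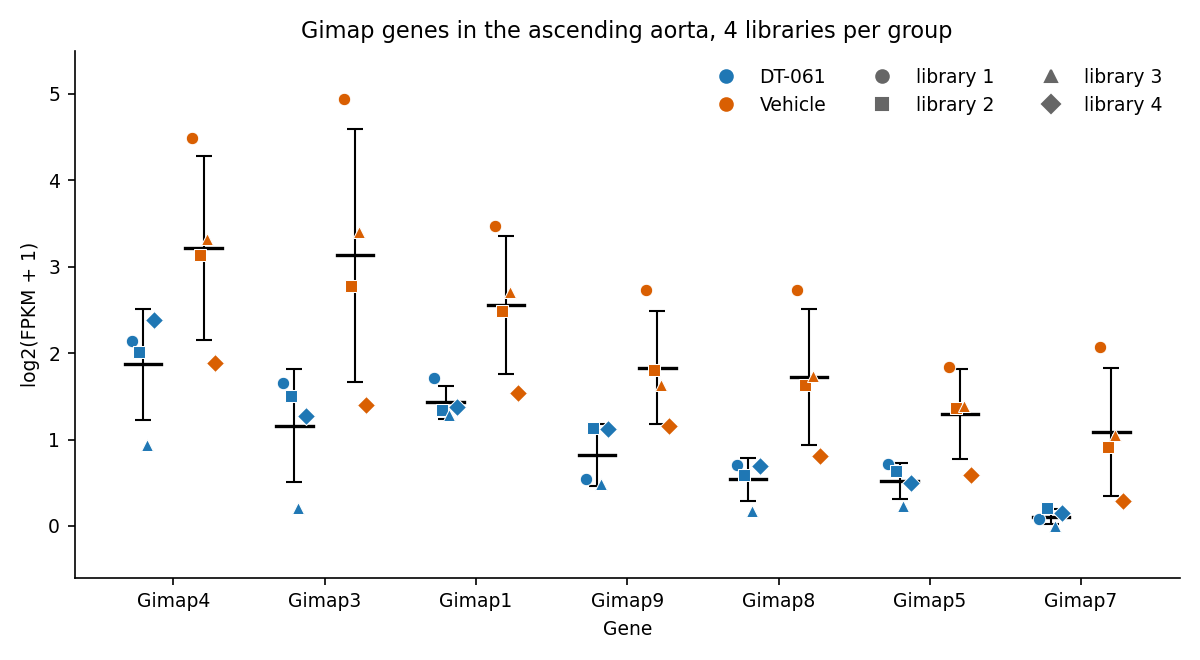
Each point is log2(FPKM + 1) of 1 Gimap gene in 1 library, coloured by treatment and shaped by library number, with bars for the group mean ± SD (n = 4). Vehicle library 1 is the highest point and DT-061 library 3 the lowest for each of the 7 genes, and vehicle library 4 sits among or just above the DT-061 libraries.

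The libraries within a group were far from equal, in much the same way for every member. Summed over the 7 genes, DT-061 libraries 1 to 4 held 9.61, 8.85, 3.21 and 9.55 FPKM, and vehicle libraries 1 to 4 held 78.3, 25.4, 31.3 and 8.96 FPKM. Vehicle libraries 1 to 3 were above all DT-061 libraries, while vehicle library 4 lay among them. Vehicle library 1 was the highest of the 8 libraries for 7 of 7 members, as it was for 74.9% of the 894 genes of the table that were lower with DT-061. DT-061 library 3 was the lowest for 7 of 7 members and for 70.2% of those 894 genes. Vehicle library 4 was the lowest vehicle library for 7 of 7 members (75.5% of the 894). For 4 members, Gimap1, Gimap3, Gimap4 and Gimap5, it was below the highest DT-061 value (26.4% of the 894). Library depth, worked out from the spacing of low FPKM values, was 14100000 to 22200000 fragments. It was 14500000 in DT-061 library 3 and 14100000 in vehicle library 4.

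The calls depended on single libraries. Without DT-061 library 3, none of the 7 members passed limma's threshold, at adjusted p of 0.051 to 0.11, and 3 had an unadjusted p under 0.05, while 49.1% of the table still passed as lower. Without vehicle library 3, 2 passed, beside 51.8% of the table. A count of 4 remained without DT-061 library 1, DT-061 library 4 or vehicle library 2, where 51.2%, 55.8% and 52.7% of the table passed as lower. With DT-061 library 3 and vehicle library 4 both left out, all 7 passed, beside 64.1% of the table. Leaving out the lowest vehicle library raises the vehicle mean, so these calls add no support. Since vehicle library 4 was the lowest vehicle library for each member, leaving it out, alone or with DT-061 library 3, left all 7 members with separate groups, as it did 65.9% and 66.0% of the table. Vehicle libraries 1 to 3 were above all DT-061 libraries in 98.0% of the 894 lower genes.

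Gimap5, a protein of lysosomal membranes whose loss in rodents depletes T cells, was among the low members. DT-061 libraries 1 to 4 had 0.642, 0.557, 0.176 and 0.417 FPKM, and vehicle libraries 1 to 4 had 2.59, 1.57, 1.61 and 0.508 FPKM. The 3 upper vehicle libraries stood clear of the DT-061 group, and vehicle library 4 fell inside it. The means were 0.448 ± 0.203 and 1.57 ± 0.852 FPKM (SD, n = 4), and the log2 change was -0.77 ± 0.26 (SE; limma adjusted p = 0.025). Without DT-061 library 3, DT-061 library 4, vehicle library 2 or vehicle library 3 the call ended (limma adjusted p of 0.051 to 0.061), as it did with both rescalings of the libraries.

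Gimap3 is a close relative of Gimap5 that has been linked to T cell survival, and it had the largest log2 change of the family. DT-061 libraries had 2.15, 1.84, 0.152 and 1.42 FPKM, and vehicle libraries had 29.7, 5.87, 9.60 and 1.64 FPKM. Taking the smallest whole numbers that match, the value of DT-061 library 3 corresponded to 2 fragments, and that of vehicle library 1 to 435. Vehicle library 4, with 21 fragments, lay between DT-061 libraries 4 and 2. The group means were 1.39 ± 0.878 and 11.7 ± 12.4 FPKM (SD, n = 4), 8.41-fold apart, with a vehicle SD above its mean. The log2 change was -1.97 ± 0.70 (SE; limma adjusted p = 0.029), rank 61 of the 1329 genes counted from the lowest. Leaving out vehicle library 3, or either of DT-061 libraries 3 and 4, ended the call (limma adjusted p of 0.053 to 0.073). Gimap3 and Gimap5 resemble each other in sequence, so reads may have been assigned to either and the value of each is uncertain.

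Gimap1 is needed for the maintenance of mature T and B cells. Its DT-061 libraries had 2.29, 1.54, 1.43 and 1.59 FPKM, and its vehicle libraries 10.1, 4.62, 5.56 and 1.90 FPKM. The DT-061 values were close to each other, and vehicle library 4 was below DT-061 library 1. The means were 1.71 ± 0.388 and 5.54 ± 3.41 FPKM (SD, n = 4), and the log2 change was -1.12 ± 0.37 (SE; limma adjusted p = 0.024). The call ended without DT-061 library 3 or vehicle library 3 (limma adjusted p of 0.053 and 0.054) and with both rescalings. In the annotation, 36.0% of the exonic bases of Gimap1 also lie in exons of the antisense transcript Gimap1os. The sources used here do not give the strand setting of the counting, so the reads of these overlapping genes cannot be told apart. Exons of Gm28053, a gene on the same strand, hold 6.44% of the exonic bases of Gimap1, 3.69% of those of Gimap5 and 3.48% of those of Gimap7. How reads in those bases were assigned is not known either. The FPKM steps matched a length of 1493 bases for Gimap1, against 3073 exonic bases in the annotation. The authors may have counted on other gene models, to which these shares need not apply.

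Gimap4, a lymphocyte GTPase reported to speed the death of T cells, had the highest mean of the family with DT-061. Its DT-061 libraries had 3.40, 3.05, 0.917 and 4.22 FPKM, and its vehicle libraries 21.5, 7.82, 9.01 and 2.71 FPKM. Vehicle library 4 was lower than 3 of the 4 DT-061 libraries. The means were 2.90 ± 1.41 and 10.3 ± 7.98 FPKM (SD, n = 4), 3.54-fold apart, and the log2 change was -1.34 ± 0.55 (SE; limma adjusted p = 0.043). Its call ended without any single library other than vehicle library 4 (limma adjusted p of 0.052 to 0.11), and with both rescalings.

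Gimap7, which can stimulate GTP hydrolysis by other family members, had the lowest mean in both groups. DT-061 libraries 1, 2 and 4 had 0.0549, 0.151 and 0.107 FPKM, and in DT-061 library 3 it was listed at 0. Vehicle libraries had 3.21, 0.888, 1.08 and 0.223 FPKM. In fragments found in the same way, the DT-061 libraries held 1, 3, 0 and 2, and the vehicle libraries 66, 25, 24 and 4. The groups did not overlap, but the nearest pair of libraries differed by a single fragment. The pooled DT-061 libraries held 6 fragments against 119, a depth-scaled ratio of 16.8 (95% exact interval 7.49 to 46.7, which covers counting error only). The means were 0.0783 ± 0.0654 and 1.35 ± 1.29 FPKM (SD, n = 4), and the log2 change was -0.98 ± 0.33 (SE; limma adjusted p = 0.025), which the added 1 compresses at such low levels. With 0.1 added instead, the log2 change was -2.65. It passed no longer without vehicle library 3 or either of DT-061 libraries 1 and 3 (limma adjusted p of 0.051 to 0.056).

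Gimap8, the largest protein of the family, carries several GTPase domains in tandem. Its DT-061 libraries had 0.629, 0.508, 0.132 and 0.614 FPKM, and its vehicle libraries 5.63, 2.11, 2.32 and 0.756 FPKM. Every vehicle library was above every DT-061 library, and the lowest vehicle value was 1.20 times the highest DT-061 value. The means were 0.471 ± 0.232 and 2.70 ± 2.07 FPKM (SD, n = 4), 5.74-fold apart, and the log2 change was -1.19 ± 0.38 (SE; limma adjusted p = 0.022). The call ended without DT-061 library 3, at a limma adjusted p of 0.051.

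Gimap9 had 0.453, 1.20, 0.398 and 1.18 FPKM in the DT-061 libraries and 5.62, 2.51, 2.11 and 1.23 FPKM in the vehicle libraries. DT-061 libraries 2 and 4 and vehicle library 4 were nearly level, with 26, 24 and 24 fragments in libraries of unequal depth. The lowest vehicle value was 1.02 times the highest DT-061 value, so the groups did not overlap by a narrow margin. The means were 0.808 ± 0.442 and 2.87 ± 1.91 FPKM (SD, n = 4), and the log2 change was -1.01 ± 0.35 (SE; limma adjusted p = 0.026). Vehicle library 2 and DT-061 libraries 1 and 3 were each needed for the call (limma adjusted p of 0.051 to 0.062 without them), and it also ended with both rescalings.

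The order of the members by mean FPKM was similar in both groups. With DT-061 it was Gimap4, Gimap1, Gimap3, Gimap9, Gimap8, Gimap5 and Gimap7 from high to low, and of these neighbours only Gimap5 and Gimap7 had ranges that did not overlap. With vehicle it was Gimap3, Gimap4, Gimap1, Gimap9, Gimap8, Gimap5 and Gimap7, and the ranges of all neighbours overlapped. Gimap3 was above Gimap4 in 2 of 4 vehicle libraries and below it in the others.

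**Figure D2:**
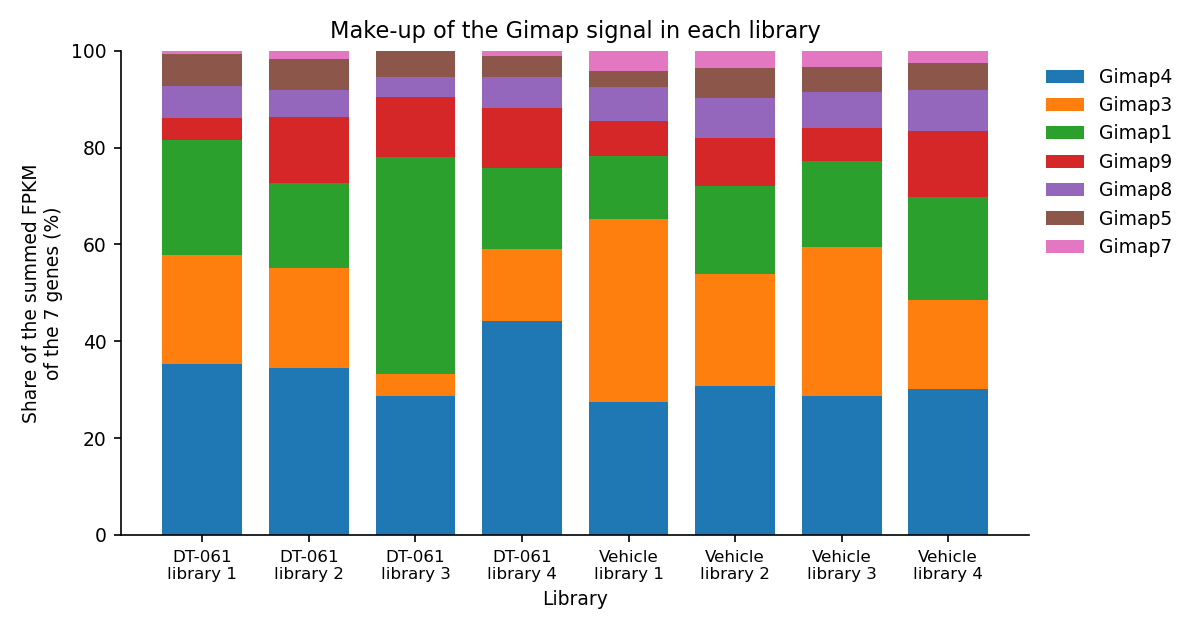
Stacked bars show the share of each Gimap gene in the summed FPKM of the 7 genes, in percent, for each library. Gimap4 holds 27.5% to 44.2% of the sum over the 8 libraries, Gimap7 at most 1.71% with DT-061 against 2.49% to 4.10% with vehicle, and Gimap1 reaches 44.6% in DT-061 library 3.

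Each member's share of the summed Gimap FPKM was compared between the groups as well. Gimap4 took 28.6% to 44.2% of the sum in the DT-061 libraries and 27.5% to 30.8% in the vehicle libraries. The share of Gimap8 was 4.12% to 6.54% against 7.19% to 8.43%, and that of Gimap7 was 0% to 1.71% against 2.49% to 4.10%. Of the 7 members, these 2 had shares that did not overlap between the groups. All 4 vehicle libraries were above all 4 DT-061 libraries, vehicle library 4 included. For Gimap7 this rested on 1, 3, 0 and 2 fragments in the DT-061 libraries and 4 in vehicle library 4. The exact intervals for counting error of DT-061 library 2 (0.62 to 8.77 fragments) and vehicle library 4 (1.09 to 10.2) overlapped. For Gimap8 the intervals of DT-061 library 1 (33 fragments, 22.7 to 46.3) and vehicle library 4 (39 fragments, 27.7 to 53.3) overlapped too. A separation of the shares beyond counting error is therefore not shown for either gene. How often shares separate in other sets of genes was not tested. In DT-061 library 3, Gimap1 took 44.6% of the sum, compared with 12.9% to 23.8% elsewhere.

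Whether a member changed by another amount than its relatives was tested by comparing its log2(FPKM + 1) with the mean of the other 6 members in each library. Over 7 two-sided exact permutation tests, for which the smallest possible p is 0.0286, none had an unadjusted p under 0.05. Adjusted over 7 tests, even that smallest p could not bring 1 member alone under 0.05, so the adjusted values cannot decide whether a single member differed. Gimap3 differed by -0.90 from the others (exact permutation p = 0.086, adjusted 0.30) and Gimap5 by 0.50 (exact permutation p = 0.057, adjusted 0.30). The remaining differences lay between -0.17 and 0.26. The added 1 compresses a log2 change more at low levels, so these differences depend in part on the level of each member. With 0.1 added in place of 1, the signs of 3 of the remaining differences turned: Gimap4 to 0.39, Gimap7 to -0.81 and Gimap8 to -0.19.

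Most T cell genes in the table fell as well. Of the 27 listed genes of the T cell receptor, its co-receptors and its signalling, 16 were in the table. By limma, 15 fell, beside 65.0% of the table, and 1, Cd3e, did not pass (adjusted p = 0.053), with a median log2 change of -1.11. Their summed FPKM was 4.42 to 12.8 with DT-061 and 10.8 to 101 with vehicle, and the 10.8 was vehicle library 4. Cd3e, a signalling chain of the receptor, had 0.639 ± 0.262 and 2.81 ± 2.20 FPKM (SD, n = 4). It passed without vehicle library 4, which held its lowest vehicle value, so that call adds no support. The means of Lck, the kinase that starts receptor signalling, were 11.6-fold apart, and those of Trbc2, a constant region of the receptor's beta chain, 6.93-fold. The number that fell dropped to 4 without DT-061 library 1 and to 5 without DT-061 library 3 or vehicle library 3. It was 0 with quantile normalization by limma, with 2 at an unadjusted p under 0.05, and there Cd6, Cd28, Icos and Ubash3a were among those with log2 changes above 0, from 0.016 to 0.16, which did not pass.

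Each member was also set against the mean of the 16 T cell genes, and none of the 7 two-sided exact permutation tests had an unadjusted p under 0.05 (adjusted p of 0.70 to 0.77). The limits given for the tests against the other members hold here as well. The differences in log2 change ran from -0.89 for Gimap3 to 0.31 for Gimap5. The ratio of summed Gimap FPKM to summed T cell FPKM was 2.18, 0.692, 0.703 and 1.14 in DT-061 libraries 1 to 4 and 0.778, 0.821, 0.692 and 0.828 in the vehicle libraries. The vehicle ratios were close to each other although the Gimap sum differed several-fold among them. DT-061 library 1 had the highest ratio, and the groups overlapped.

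**Figure D3:**
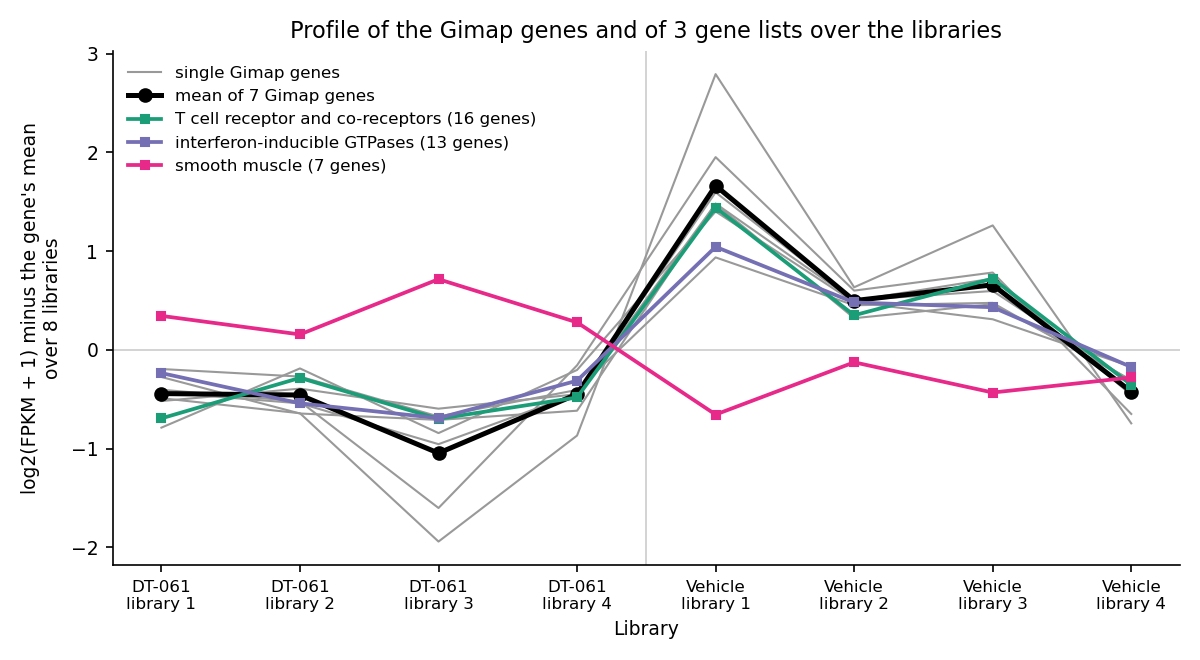
Lines trace log2(FPKM + 1) minus each gene's own mean over the 8 libraries, for the single Gimap genes (grey), their mean (black) and the means of 3 gene lists. The T cell line is at 1.44 against a Gimap mean of 1.66 in vehicle library 1, and at -0.70 against -1.05 in DT-061 library 3. Lists not drawn include lymphocyte survival and homing (1.59 and -0.85 there) and leukocytes in general (1.71 and -1.72). The interferon-inducible GTPases follow with a smaller range, and smooth muscle genes run the other way.

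Genes of other lymphocyte functions and of other leukocytes were lower as well, in a table of which 65.0% passed as lower. Of 21 listed lymphocyte survival and homing genes, 8 were in the table and 7 of these fell, with a median of -1.08. Ccr7, the chemokine receptor that guides T cells to lymph nodes, had a log2 change of -1.28 ± 0.42, and Cxcr4, a chemokine receptor of many leukocytes, one of -1.71 ± 0.46. The count of 7 dropped to 2 without DT-061 library 3 or vehicle library 3, to 3 without DT-061 library 1 and to 4 without DT-061 library 2, and it was 1 with quantile normalization. Of 12 listed natural killer and cytotoxic genes, 6 were in the table, of which 5 fell and Eomes did not pass (limma adjusted p = 0.057). The means of Nkg7, a protein of cytotoxic granules, were 15.6-fold apart. The count was 3 without any 1 of the DT-061 libraries or without vehicle library 2. It was 0 with quantile normalization by limma, with 2 at an unadjusted p under 0.05, and there Eomes and Prf1 had log2 changes of 0.040 and 0.031, which did not pass.

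Of 21 listed genes shared by leukocytes in general, 12 were in the table. All 12, Coro1a (an actin regulator, -1.80 ± 0.57) among them, fell, beside 65.0% of the table, with a median log2 change of -1.42. Their summed FPKM was 18.9 to 92.4 with DT-061 and 90.8 to 431 with vehicle. The count was 6 without DT-061 library 3, and 4 without vehicle library 1, 2 or 3 or with either rescaling. Summed Gimap FPKM per summed leukocyte FPKM was 0.134, 0.102, 0.170 and 0.103 in the DT-061 libraries and 0.182, 0.118, 0.145 and 0.0987 in the vehicle libraries, and the groups overlapped. The part of the number of leukocytes in the Gimap changes was not tested.

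Markers of other single cell types were few in the table. It was selected for significant genes and 65.0% of it passed as lower, so listed genes that did not change may be missing. The B cell list had 1 of 13 members, the immunoglobulin constant region Ighm, at 3.68 to 19.9 FPKM with DT-061 and 22.2 to 694 with vehicle. Its call ended without any single library other than vehicle library 2 or 4. It also ended with both rescalings and with the replicate number as a block (limma adjusted p of 0.060 to 0.066). Of 9 listed plasma cell genes, 6 were in the table and all 6 fell, with a summed FPKM of 20.7 to 58.2 against 135 to 4830. With the median rescaling 4 of them fell and Sdc1 was at 0.34, which did not pass, and with quantile normalization 3 fell. Of 16 listed macrophage genes, 3 were in the table and all 3 fell (5.83 to 22.9 against 24.5 to 125 FPKM). Of 11 listed neutrophil genes, 3 were in the table and all 3 fell (0.569 to 2.46 against 1.46 to 24.8 FPKM). At most 1 did so without any single library other than DT-061 library 2 or vehicle library 4. With quantile normalization 0 of the 3 passed limma's threshold, and 0 had an unadjusted p under 0.05. S100a9, a neutrophil protein, was listed at 0 in DT-061 library 3 and vehicle library 4.

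Endothelial markers were examined because some Gimap genes have been described in endothelium. In the table were 2 of 21 listed, Robo4, a guidance receptor, and Plvap, a protein of endothelial pores. Both fell, at log2 changes of -1.06 ± 0.29 and -0.83 ± 0.22 (SE, n = 4 per group; limma adjusted p of 0.018 for each), but neither passed with the median rescaling. With quantile normalization Robo4 was at -0.17 (limma adjusted p = 0.54) and did not pass, while Plvap did. Their summed FPKM was 19.1 to 26.0 with DT-061 and 28.7 to 62.5 with vehicle. Pecam1 and the pan-leukocyte gene Ptprc were not analysed here. Of 10 listed smooth muscle genes, which mark the main cell type of the aortic wall, 7 were in the table and all 7 rose. Their median log2 change was 0.71, and 404 of the 1329 genes of the table passed as higher. With quantile normalization 5 of the 7 rose, and Tagln, at 0.15 (limma adjusted p = 0.51), and Acta2, with no difference, did not. That scaling gives each rank the same value in every library, so a gene of unchanged rank cannot differ under it. The most abundant genes have little room to change rank, so it cannot decide whether Acta2 or Tagln rose. Acta2, smooth muscle actin, was at 3458 to 9006 FPKM over the 8 libraries. The part of the makeup of the tissue in the Gimap changes was not tested.

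Another family of GTPases, the interferon-inducible guanylate binding proteins and their relatives, was lower too. Of 21 listed, 13 were in the table. By limma 12 fell, beside 65.0% of the table, and Gvin1 did not pass, with a median log2 change of -0.83. Mx1, an antiviral GTPase, had a log2 change of -1.56 ± 0.50, and Iigp1, a GTPase that attacks the vacuoles of intracellular parasites, one of -1.16 ± 0.26. In 8 of the 13 the groups were separate, against 3 of the 7 Gimap genes and 48.2% of the table. Their summed FPKM ran from 39.2 to 62.2 with DT-061 and from 67.9 to 170 with vehicle. The count that fell was 7 without DT-061 library 3 and 1 with the median rescaling, where Gbp7 was at 0.031 and did not pass. It was 3 with quantile normalization, where Gvin1 passed as higher, at 0.28 (limma adjusted p = 0.025). Gbp4, Gbp9 and Mx2 were there at 0.22, 0.12 and 0.096 and Gm4951 at 0.0011, and these 4 did not pass.

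Several Gimap proteins, Gimap3 and Gimap5 among them, have been reported to bind proteins of the Bcl-2 family, which decide between survival and death of a cell. Of 17 listed Bcl-2 family genes, 5 were in the table. Bik, a promoter of cell death, rose, with 11.0 ± 1.01 FPKM against 7.54 ± 0.776 (SD, n = 4), a difference of 0.49 ± 0.11 in log2 (SE; limma adjusted p = 0.016). The survival genes Bcl2a1a and Bcl2a1b and the death promoters Bid and Pmaip1 fell, at -0.95, -0.69, -0.72 and -0.91, while Bid turned to 0.13 with quantile normalization, where the calls of the other 3 ended too. The call of Bcl2a1a also ended without DT-061 library 3 or vehicle library 2 (limma adjusted p of 0.054 and 0.051). That of Bid ended with the median rescaling, at -0.077 (limma adjusted p = 0.71). Bcl2a1a and Bcl2a1b are near-identical copies, and the value of each is uncertain.

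The genes of the table were ranked by how like the Gimap mean their profile over the 8 libraries was. Likeness was the root mean square difference between log2(FPKM + 1) profiles, each centred on its own mean, over 1003 protein coding genes with a mean of at least 1 FPKM. It was smallest for Ciita (0.104), the master regulator of class II antigen presentation genes, and for Ptpn22 (0.116), a phosphatase that restrains T cell receptor signalling. Also among the 8 nearest genes were the kinase gene Map4k1 (0.123), Fcho1 (0.129), Nlrc5 (0.131), a regulator of class I genes, Ccr7 (0.134) and Traf1 (0.146). The median over the genes compared was 0.62. Of the members, Gimap8 lay nearest to the mean of the others, at 0.0764, and Gimap3 farthest, at 0.687.

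**Figure D4:**
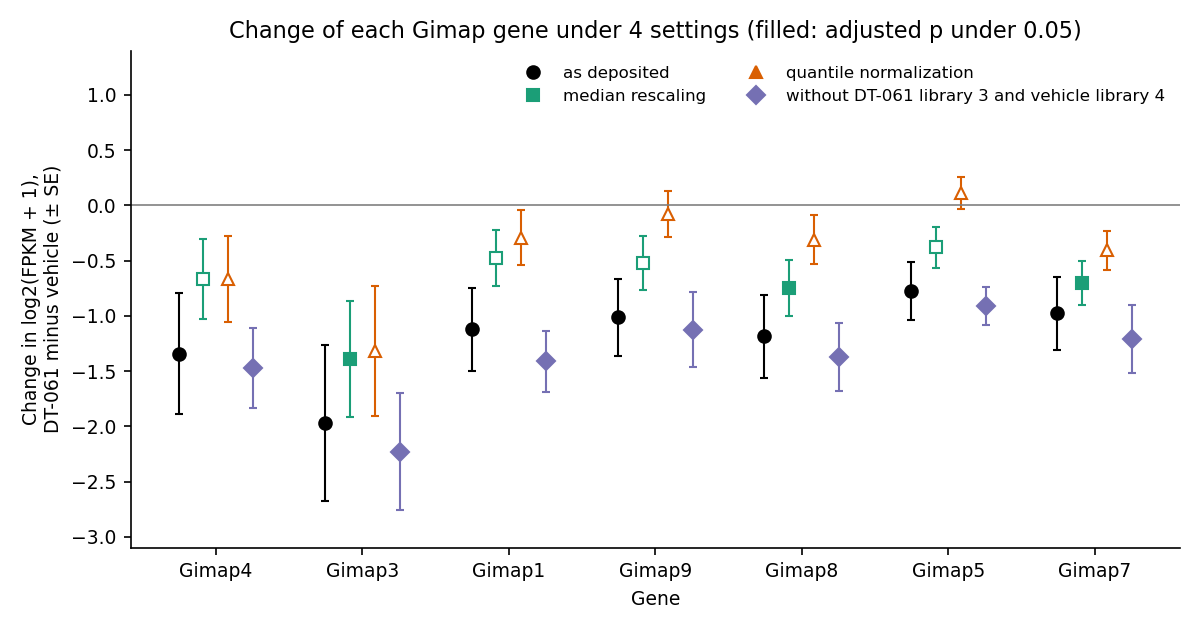
Points show the change in log2(FPKM + 1), DT-061 minus vehicle, with its SE, for each Gimap gene as deposited, with median rescaling, with quantile normalization and without DT-061 library 3 and vehicle library 4, where filled points have an adjusted p under 0.05. The points lie below 0 except Gimap5 with quantile normalization, at 0.11, and no quantile point is filled.

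The size of the changes depended on how the libraries were scaled. Rescaling each library to the same median over the table moved the changes by a median of 0.68, and quantile normalization moved them by 0.56. As deposited, 68.1% of the calls in the table were falls, against 41.0% and 34.8% under these scalings, both of which assume a balance that a selected table need not have. With the median rescaling, Gimap3, Gimap7 and Gimap8 passed limma's threshold, and Gimap1, Gimap4, Gimap5 and Gimap9 had log2 changes of -0.48, -0.66, -0.38 and -0.52. With quantile normalization, Gimap3 had the largest change, -1.31 (limma adjusted p = 0.095), and Gimap9 was at -0.075.

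The cluster lies on chromosome 6 from 48647234 to 48770851 (GRCm38), a stretch of 123.6 kb that holds 8 Gimap genes in GENCODE release M21. Gimap8 is at 48647234 to 48660875, Gimap9 at 48676129 to 48679114, Gimap4 at 48684549 to 48692060, Gimap7 at 48718621 to 48724636, Gimap1 at 48739054 to 48743795 and Gimap5 at 48746197 to 48754210, all on the plus strand. Gimap3, at 48764464 to 48770851, is on the minus strand. The remaining one, Gimap6, was not analysed here. The table held 9 of the 41 protein coding genes within 1 Mb of the cluster, of which 7 were the members.

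**Figure D5:**
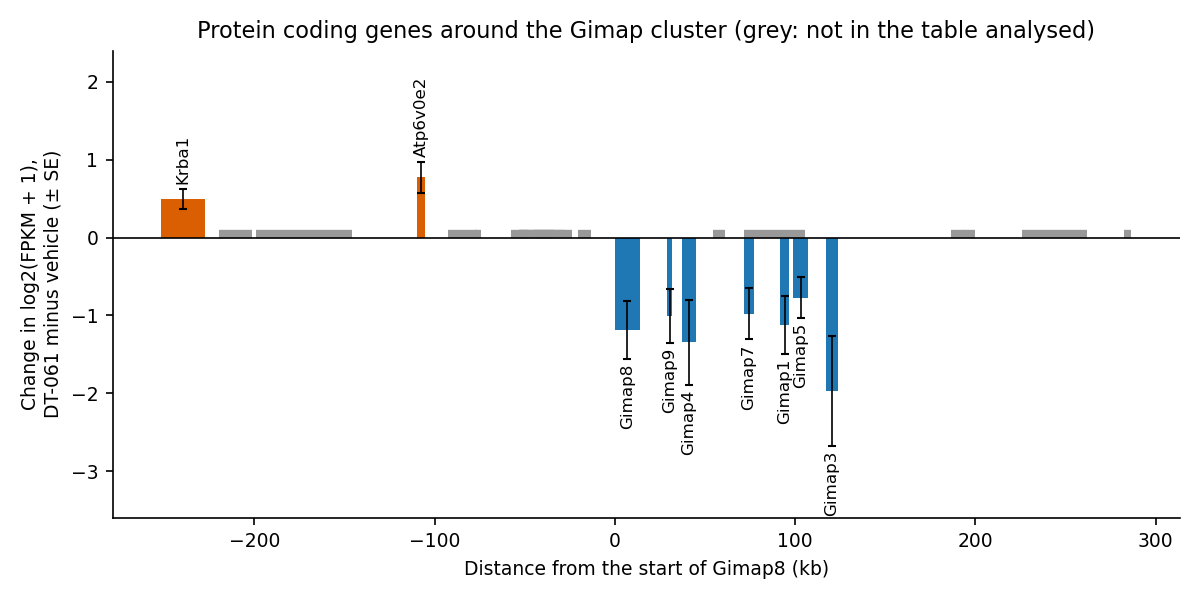
Bars show the change in log2(FPKM + 1), DT-061 minus vehicle, with its SE, at each gene's distance from the start of Gimap8 in kb, and grey blocks are protein coding genes that are not in the table analysed. The 7 Gimap genes point down, though Gimap5 turned to 0.11 with quantile normalization, and Krba1 and Atp6v0e2 point up.

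The other 2 of the 9, Krba1 and Atp6v0e2, start before Gimap8, at -251.6 and -109.6 kb, and both rose. Atp6v0e2, a subunit gene of the proton pump of vesicles, had 5.97, 6.25, 10.4 and 7.01 FPKM in the DT-061 libraries and 5.23, 3.34, 3.22 and 3.75 FPKM in the vehicle libraries. Its log2 change was 0.77 ± 0.20 (SE; limma adjusted p = 0.018). Krba1 had 4.03 ± 0.324 and 2.56 ± 0.303 FPKM (SD, n = 4), and its log2 change was 0.50 ± 0.13 (SE; limma adjusted p = 0.017). The call of Krba1 ended with the replicate number as a block (limma adjusted p = 0.052). In both genes the groups did not overlap. The share of the table separate in that direction was not worked out, and 404 of its 1329 genes passed as higher.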

How the data were processed

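The deposited values are FPKM made by the authors (fragments scaled to gene length and mapped fragments). Per the submitters' processing notes, mm10, featureCounts 1.5.0-p3, StringTie 1.3.3b and HISAT2 2.0.5 were used, and their roles are not stated. The sources used here do not give the strand setting, or the test and threshold by which the 1329 genes were selected. Symbols were matched for 1328 genes, and coordinates came from GENCODE release M21.

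In R 4.3.3, limma 3.58.1 with its trend and robust options was fitted to log2(FPKM + 1), 8 libraries in all, with treatment as the only term and Benjamini-Hochberg adjustment over the 1329 genes. It was also run on simulated data, in which each gene varied independently between libraries, unlike the pattern shared by many genes here. Depth was recovered as the step at which low FPKM values became whole multiples: of 35 to 59 preselected values per library, 86.8% to 100% were whole within 0.03, against 2.13% to 5.71% at the median step tried. Fragments per member are the smallest whole numbers that match its 8 values within 0.04. For Gimap1, Gimap3, Gimap5 and Gimap7 they imply lengths of 1493, 906, 1953 and 1269 bases, against 3073, 2577, 4149 and 2325 in GENCODE. For Gimap4, Gimap8 and Gimap9 the lengths were 1804, 3654 and 1384, against 1837, 3700 and 1642. The gene models may differ or the true counts may be larger multiples, so fragment numbers and their intervals are uncertain. A log2 change is DT-061 minus vehicle, and a fold is a ratio of mean FPKM.

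The genes named were every member, the 4 most changed genes of each list among those averaging 1 FPKM or more (fewer where a list had fewer), Cd3e, the 8 genes most like the members, and table genes within 1 Mb. Other names, given because a count was 5 or fewer, a gene did not pass or a scaling turned it, were chosen after their values were seen. Some genes picked in these ways are not reported here. The members and the 14 lists were chosen with earlier results of these data known. Of the lists, that of reported Gimap partners had 0 of 9 genes in the table. Alternatives tried were adding 0.1, dropping genes averaging under 1 FPKM, limma without both options, 2 rescalings, the replicate number as a block, and leaving out libraries.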

Additional observations from a re-analysis of the deposited data

Results flagged for a closer look

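In each group of 4 libraries, the gap between the highest or lowest value and its nearest neighbour was divided by the group's whole range. Of 112 groups of values checked, 3 had a ratio above Dixon's critical value at 95%, where chance gives about 1 in 20. Fcho1, one of the genes most like the Gimap mean, had 0.103 FPKM in DT-061 library 3 against 0.382 to 0.426 in the other DT-061 libraries. Derl3, a plasma cell gene, had 7.49 FPKM in vehicle library 1 against 0.742 to 1.71 in the other vehicle libraries. Myl9, a smooth muscle gene, had 4900 FPKM in DT-061 library 3 against 2578 to 2971 in the other DT-061 libraries. No Gimap gene was among them.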

How the results depend on the processing

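The count of 7 Gimap genes called lower was 7 with a pseudocount of 0.1 and with limma without the trend and robust options, and 6 with a minimum mean FPKM of 1, which removed Gimap7. It was 3 with the median rescaling, 0 with quantile normalization by limma (1 at an unadjusted p under 0.05), and 0 to 7 with 1 library left out, which also leaves fewer values to test. The table calls numbered 1268 as deposited, 735 with the median rescaling (301 lower) and 604 with quantile normalization (210 lower), and 942 to 1230 with 1 library left out. Members without overlap numbered 3 as deposited, beside 48.2% of the table, and 3 to 7 with 1 library left out, beside 48.3% to 65.9%. Without DT-061 library 3 and vehicle library 4 they numbered 7, beside 66.0%. They numbered 1 with the median rescaling and 0 with quantile normalization. The share of the table was not worked out there, so a drop of the members cannot be told from one of the whole table.

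With the median rescaling, Gimap1, Gimap4, Gimap5 and Gimap9 lost their calls at log2 changes of -0.48, -0.66, -0.38 and -0.52 (limma adjusted p of 0.087 to 0.13). With quantile normalization, Gimap1, Gimap3, Gimap4, Gimap7, Gimap8 and Gimap9 did so at -0.29, -1.31, -0.67, -0.41, -0.31 and -0.075 (limma adjusted p of 0.080 to 0.78), Gimap5 turned to 0.11 and Bid to 0.13. The cause was not tested. With 1 library left out, log2 changes ran from -1.46 to -0.82 for Gimap1, -2.55 to -1.37 for Gimap3, -1.78 to -0.92 for Gimap4, -1.01 to -0.59 for Gimap5, -1.24 to -0.65 for Gimap7, -1.49 to -0.85 for Gimap8 and -1.24 to -0.71 for Gimap9.

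Some differences between a member and other genes changed sign. With a pseudocount of 0.1, Gimap4 against the other members turned to 0.39, Gimap7 against the other members to -0.81 and Gimap8 against the other members to -0.19. Gimap1 against the other members was -0.027 without DT-061 library 3 and vehicle library 4. With 1 library left out, these differences ran from -0.029 to 0.17 for Gimap1, -0.31 to 0.019 for Gimap4 and -0.019 to 0.056 for Gimap8. Against the T cell list, Gimap1 (0.60), Gimap4 (0.41) and Gimap7 (-0.62) turned with a pseudocount of 0.1, and Gimap1 (0.20) and Gimap8 (0.14) with list genes of at least 1 FPKM. With 1 library left out, Gimap1 against the T cell list ran from -0.19 to 0.069 and Gimap9 against the T cell list from -0.058 to 0.14. None of these differences had passed its test, which after adjustment could not be passed by 1 member alone.

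The labels number the libraries 1 to 4 in each group without saying that a number is shared by a litter or batch. Libraries of the same number correlated in their deviations from the group means at 0.18, -0.11, -0.05 and -0.47, so the numbers were not taken as pairs. With the replicate number as a block, table calls numbered 834, and 5 of the 7 members passed, and Gimap4 and Gimap9 did not, at log2 changes of -1.34 and -1.01 (limma adjusted p of 0.063 and 0.059). Depth limits Gimap7 most, since its DT-061 libraries held 0 to 3 fragments.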
